A study of Mus musculus with 2 samples.

Results

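The genes described here encode the folding machinery of the cytosol and of mitochondria, with the transcription factors of the heat shock response. They were taken as the entries of the deposited count table whose symbol equals 1 of 40 listed names, and 39 of the 40 were found among 21983 entries. Cct6a, which encodes a subunit of the CCT ring, was not analysed here. The cells were 14837, a mouse pancreatic ductal adenocarcinoma (PDAC) line of the C57BL/6 strain, maintained in DMEM containing penicillin (100 U/ml) and fetal bovine serum (10%). They were kept for 48 h in medium conditioned by cancer-associated fibroblasts (CAFs) or by 14837 cells, with 1 library per medium and no agent or genetic change named for either. The CAF-medium library could be tied to a value column by its name and is the library reported, so the media are not compared. The labels describe the line no further and do not say how many cultures stood behind a library.

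Chaperones hold unfolded proteins apart and let them fold. HSP70 binds exposed stretches of a protein in cycles driven by ATP, J-domain proteins hand it clients and trigger the cycle, and exchange factors such as HSP110 and BAG proteins release them. HSP90 matures kinases and steroid receptors, the CCT ring encloses actin and tubulin, and HSP60 with its lid HSP10 encloses proteins inside mitochondria. When misfolded proteins accumulate, heat shock factor HSF1 binds heat shock elements, repeats of GAA in alternating orientation, and raises transcription of many of these genes.

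Sequences near the start of the genes are shown first. The genes were listed by name and not by sequence. That list includes genes known to be induced by heat, so the share with a heat shock element is not independent of the choice. RefSeq windows (build GRCm38.p6, 250 bases before to 50 after an annotated start) matched 32 of the 39 genes by symbol, with 41 windows. An element of 3 repeats was searched as GAANNTTCNNGAA or TTCNNGAANNTTC, which are each other's reverse complement, so both strands were covered. An element of 2 repeats was searched as GAANNTTC or TTCNNGAA, each its own reverse complement. The longer element contains the shorter ones, and matches may overlap. The set below holds the Hspe1 window, the matches of the remaining genes with 3 repeats and their own start region, and windows of 2 genes that are known to be induced by heat but had few counts. Sequences run 5′ to 3′ on the strand of the gene, with the matched bases in capitals. For Chordc1, 1 of 3 overlapping matches is marked, and for Hspe1 the capitals join overlapping matches of 3 repeats.

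Hspe1 window, chr1:55087898-55088197, plus strand: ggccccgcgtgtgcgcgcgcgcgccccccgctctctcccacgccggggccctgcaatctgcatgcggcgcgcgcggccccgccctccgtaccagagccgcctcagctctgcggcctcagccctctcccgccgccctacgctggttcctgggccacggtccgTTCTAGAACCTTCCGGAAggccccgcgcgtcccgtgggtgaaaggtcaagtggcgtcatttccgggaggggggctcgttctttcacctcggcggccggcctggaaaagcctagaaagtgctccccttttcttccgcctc
Hsph1 match, chr5:149636280-149636308, minus strand: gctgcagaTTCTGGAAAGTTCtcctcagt
Chordc1 match, chr9:18292260-18292288, plus strand: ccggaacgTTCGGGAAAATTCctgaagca
Dnajb6 match, chr5:29735844-29735872, plus strand: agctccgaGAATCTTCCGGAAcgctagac
Hspa1b window, chr17:34959189-34959488, minus strand: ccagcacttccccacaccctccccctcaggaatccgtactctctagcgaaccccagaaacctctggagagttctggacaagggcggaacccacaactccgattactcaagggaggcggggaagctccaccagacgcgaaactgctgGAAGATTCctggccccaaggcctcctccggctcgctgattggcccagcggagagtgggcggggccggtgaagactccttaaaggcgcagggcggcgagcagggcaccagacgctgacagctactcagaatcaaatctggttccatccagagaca
Hspb1 window, chr5:135887669-135887968, plus strand: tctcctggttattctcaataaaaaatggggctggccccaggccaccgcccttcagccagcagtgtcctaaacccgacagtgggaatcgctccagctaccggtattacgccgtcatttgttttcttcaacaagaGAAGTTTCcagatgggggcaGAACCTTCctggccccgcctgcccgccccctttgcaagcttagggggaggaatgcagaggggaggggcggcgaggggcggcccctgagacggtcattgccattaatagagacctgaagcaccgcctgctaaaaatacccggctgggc

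Of the 32 genes, 5 (15.6%) carried 3 repeats in a window, namely Hspd1, Hspe1, Hsph1, Chordc1 and Dnajb6, while 0.662% of all 27025 symbols with a window carried 3 repeats. Counted by window, the shares were 17.1% of 41 and 0.603% of 32851. Windows of a gene can overlap, and the same Hsph1 match and the same Dnajb6 match were each counted in more than 1 window. Hspd1 and Hspe1, the genes of HSP60 and HSP10, lie head to head, and 285 of the 300 bases of the Hspe1 window also lie in a window of Hspd1, so these genes share 1 element. It starts 89 bases before the Hspe1 start. With 2 repeats or more there were 15 of 32 genes (46.9%), against 17.0% of all symbols. In 58 genes with a window from a separate list of 75 other chaperone network genes, described at the end, 0 carried 3 repeats and 10 (17.2%) carried 2. The windows of Hspa1a and Hspa1b had the same letter at 296 of 300 positions. A match of letters is a description of the window and does not show that a factor binds there. Only exact matches inside the windows were searched, so a gene without a match may still have an inexact element or one elsewhere.

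The CAF-medium library held 21269197 counts in total, and 11569 entries had at least 10 counts. Levels are counts per 1000000 of that total (CPM), with exact Poisson 95% intervals in parentheses that cover counting error only. To compare genes, CPM was divided by the length in kilobases of the longest protein-coding transcript, which is called CPM per kb. The median gene among entries with at least 10 counts stood at 37.9 CPM and at 11.9 CPM per kb. For a count of 0 the limit used is 3 counts, or 0.141 CPM, a one-sided 95% limit, while the upper end of the two-sided interval is 0.173 CPM. Genes that most cells use, among them the ATP synthase gene Atp5a1, were also listed at 0, so a gene at 0 is not described as unexpressed. Of 8 ductal epithelial markers 5 exceeded the median gene in CPM, led by Krt18 at 1819 CPM, while Sox9 stood at 17.2 CPM, Epcam had 2 counts and Cldn4 was listed at 0. Of 8 fibroblast markers none exceeded it, with Pdgfra highest at 34.2 CPM and Col1a2, Col3a1, Dcn and Lum listed at 0.

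Most of the chaperone genes were well above the middle of the library, and the few exceptions were far below it. Among the 39 genes, 3 were listed at 0 and the other 36 reached 10 counts or more. Of all 21983 entries, 8056 were listed at 0 and 11569 reached 10 counts. In CPM 33 of the 39 exceeded the median gene, and in CPM per kb the number was also 33. By definition 50.0% of entries with at least 10 counts exceed it, and 26.3% of all entries did so on either scale. Together the 39 genes held 1.36% of all counts. The median of the 36 genes with at least 10 counts was 224 CPM, and it was 74.6 CPM per kb. Those 36 had passed a minimum, so their median leaves out the lowest genes. The 6 genes at or below the median gene were Hspa1a, Hspa1b and Hspa2 of the HSP70 family, the HSP110 gene Hspa4l and the small heat shock protein genes Hspb1 and Hspb8.

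**Figure D1:**
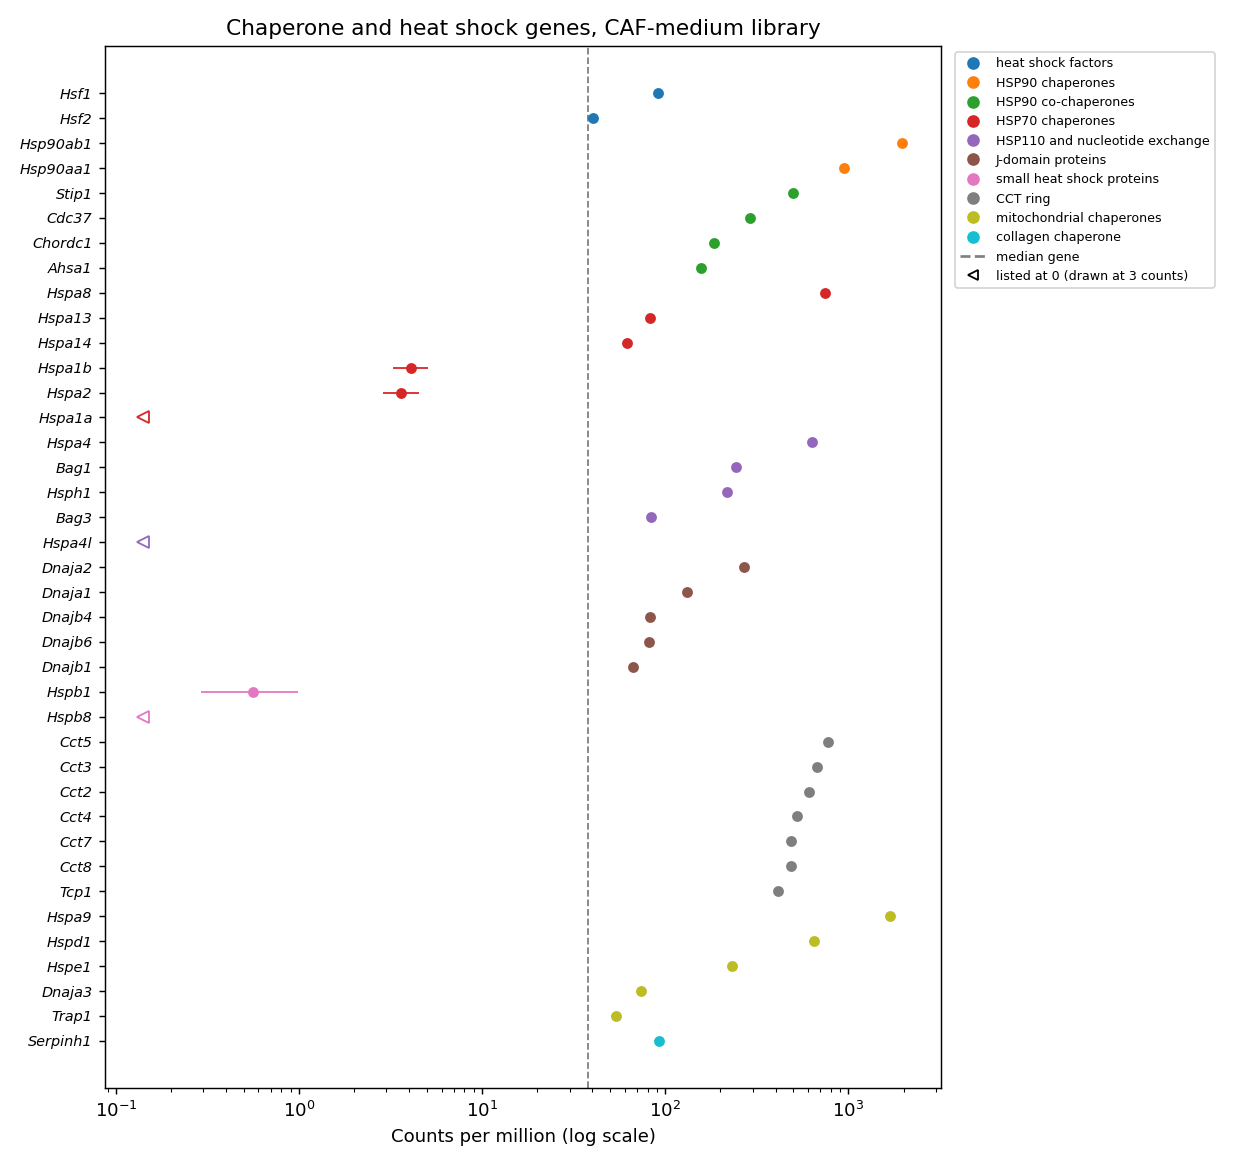
Level of each of the 39 genes in CPM on a log axis, in 10 role groups, with bars for exact Poisson 95% intervals, a dashed line at the median gene (37.9 CPM) and open triangles at 3 counts for genes listed at 0. The 33 genes right of the line run from Hsf2 at 40.1 CPM to Hsp90ab1 at 1962 CPM, and the 6 others lie at 4.09 CPM or lower.

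Both heat shock factors were present. Hsf1, the main activator of the response, had 1949 counts, or 91.6 CPM (87.6 to 95.8). Hsf2, a related factor that can pair with HSF1, had 852 counts, or 40.1 CPM (37.4 to 42.8), the level nearest to the median gene among the 39. Per kilobase Hsf1 stood 2.83 times above Hsf2 (exact binomial 95% interval 2.61 to 3.07). Neither element was found in the Hsf2 window.

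Cytosolic HSP90 had the highest group median per kilobase. Hsp90ab1, the constitutive form (chromosome 17, 45567775 to 45573271, minus strand, mm10), was counted 41733 times, which gave 1962 CPM (1943 to 1981) and the 8th place in the whole table by CPM. Hsp90aa1, the form known to be more inducible by stress (chromosome 12, 110690605 to 110702728, minus strand), was counted 20080 times, or 944 CPM (931 to 957). Per kilobase Hsp90ab1 stood 2.71 times above Hsp90aa1 (2.66 to 2.75). Of the 64-base windows of the Hsp90aa1 transcript, 55.0% were also found in transcripts of other genes, mainly the processed pseudogenes Gm12346 and Gm5844, whereas for Hsp90ab1 the share was 1.3%. Neither pseudogene had an entry in the table, and the part of this sharing in the ratio was not tested.

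The 4 co-chaperones of HSP90 were all above the median gene, in CPM and in CPM per kb. Stip1, which bridges HSP70 and HSP90, was highest at 10558 counts, or 496 CPM (487 to 506) and 235 CPM per kb. Ahsa1, which stimulates the ATPase of HSP90, stood at 157 CPM (152 to 163) and 114 CPM per kb. Cdc37, which brings kinases to HSP90, stood at 288 CPM (281 to 296) but 36.7 CPM per kb. Chordc1, a partner of HSP90 with 3 repeats of the element at its start, stood at 185 CPM (179 to 191) and 32.0 CPM per kb. The order of Cdc37, Chordc1 and Ahsa1 therefore depends on the length. The longest transcript of Cdc37 has 7851 bases and its longest coding sequence 1137. Per kilobase of coding sequence Cdc37 stood at 254 CPM, Chordc1 at 186 CPM and Ahsa1 at 155 CPM.

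The HSP70 family spanned a wide range of levels, from a leading constitutive gene to an inducible pair with almost no counts. Hspa8, the constitutive cytosolic HSP70 (chromosome 9, 40800984 to 40810087, plus strand), reached 747 CPM (735 to 759) and 312 CPM per kb from 15889 counts. The stress-inducible HSP70 is encoded by the near-identical pair Hspa1a and Hspa1b on chromosome 17. Hspa1b (34956436 to 34959238, minus strand) had 87 counts, or 4.09 CPM (3.28 to 5.05), and Hspa1a (34969190 to 34972156, minus strand) was listed at 0. Their transcripts shared 58.1% and 56.0% of windows with other genes, chiefly with each other, so the split of counts between them is uncertain. Their counts with those of the neighbouring testis form Hspa1l added up to 154, or 7.24 CPM (6.14 to 8.48). The labels do not say how multiply matched reads were handled, so this sum and the ratio below may leave out shared reads. Per kilobase Hspa8 stood 214 times above Hspa1b (173 to 267), or 119 times with all exons (96.4 to 149), a pair chosen after its values were seen. Of the windows of Hspa8, 71.2% were shared with other genes, mostly processed pseudogenes without an entry in the table.

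The remaining HSP70 genes were low or near the middle. Hspa2, known for its role in male germ cells, had 77 counts, or 3.62 CPM (2.86 to 4.52). Hspa13, an HSP70 of microsomes and therefore not cytosolic, stood at 82.7 CPM (78.8 to 86.6) and 19.5 CPM per kb. Hspa14, which works at the ribosome on emerging chains, stood at 62.0 CPM (58.7 to 65.4) and 34.5 CPM per kb. Scaled per kilobase, the intervals of Hspa1b (1.46 CPM per kb) and Hspa2 (1.43 CPM per kb) overlapped, while those of Hspa13 and Hspa14 did not. The order of Hspa13 and Hspa14 depended on the length. Per kilobase of coding sequence Hspa13 stood at 58.5 CPM and Hspa14 at 40.6 CPM.

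Of 5 exchange factor genes 4 exceeded the median gene in CPM and in CPM per kb, and Hspa4l was listed at 0. Bag1 was highest per kilobase of transcript, and the HSP110 gene Hspa4 in CPM and per kilobase of coding sequence. Hspa4 had 13493 counts, or 634 CPM (624 to 645) and 137 CPM per kb. Hsph1, the heat-inducible HSP110, had 4629 counts, or 218 CPM (211 to 224) and 57.2 CPM per kb. Its match of 3 repeats begins 16 or 37 bases after an annotated start, depending on the window. Hspa4l, the third HSP110 gene, shared 0.3% of its windows with other genes. Per kilobase Hspa4 stood 2.4 times above Hsph1 (2.32 to 2.48), or 3.83 times with all exons (3.71 to 3.96), a pair chosen after its values were seen. Bag1, an exchange factor that links HSP70 to the proteasome, stood at 243 CPM (236 to 250) and 180.2 CPM per kb. Bag3, an HSF1 target that joins HSP70 to small heat shock proteins and autophagy, stood at 83.4 CPM (79.6 to 87.4) and 32.6 CPM per kb. Bag1 thus lay 5.53 times above Bag3 per kilobase (5.24 to 5.84), and 2.91 times in counts (2.76 to 3.08).

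All 5 J-domain genes exceeded the median gene, and per kilobase all 5 lay below Hspa8. Dnaja2, a class A partner of HSP70, was highest at 269 CPM (262 to 276) and 92.1 CPM per kb. Dnaja1, its relative, stood at 132 CPM (127 to 137) and 23.4 CPM per kb, or 0.254 times Dnaja2 per kilobase (0.243 to 0.266), with 17.0% of its windows shared. That ratio depends on the length and was 0.508 per kilobase of coding sequence (0.486 to 0.532), 0.169 with all exons (0.161 to 0.177) and 0.49 in counts (0.468 to 0.513). Among class B genes, Dnajb4 stood at 82.9 CPM (79.1 to 86.9) and 33.6 CPM per kb. Dnajb6, known for suppressing aggregation, stood at 81.3 CPM (77.5 to 85.2) and 27.9 CPM per kb, with 35.2% of windows shared. Dnajb1, the heat-inducible partner of HSP70, stood at 66.8 CPM (63.3 to 70.3) and 22.3 CPM per kb. Dnajb1 stood 0.8 times as high as Dnajb6 per kilobase (0.745 to 0.859), a difference that turned round when the length of all exons was used.

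The small heat shock proteins bind unfolded proteins without ATP, and the 2 genes of this kind among the 39, Hspb1 and Hspb8, were at or near 0 counts. Hspb1, the widespread HSP25 of mouse (chromosome 5, 135887919 to 135889563, plus strand), received 12 counts, which is 0.564 CPM (0.292 to 0.986). Hspb8, the partner of BAG3 (chromosome 5, 116408491 to 116422864, minus strand), was listed at 0, with 0.0% of its windows shared. Of the Hspb1 windows 49.1% were shared with a processed pseudogene and with Gm9817, which had 1 count. Hspb1 and Gm9817 together had 13 counts, or 0.611 CPM (0.325 to 1.05), a sum that may likewise leave out shared reads. In the Hspb1 window printed above, 2 separate matches of 2 repeats start 117 and 97 bases before the start.

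The CCT subunits were all high. Each ring of CCT holds 1 copy of each subunit, so the subunits are needed in equal number as proteins. All 7 subunits found exceeded the median gene, and together they held 0.395% of all counts. Cct5 was highest with 16402 counts, or 771 CPM (759 to 783) and 416 CPM per kb. Cct3 and Cct2 followed at 339.7 and 311 CPM per kb, from 14285 and 12956 counts. Next came Cct4 at 209.8, Cct8 at 202 and Cct7 at 199 CPM per kb, from 11084, 10287 and 10351 counts, and per kilobase the interval of Cct8 overlapped those of Cct4 and Cct7. Tcp1, the first subunit described, was lowest with 8727 counts, or 410.3 CPM (402 to 419) and 168 CPM per kb, while 16.9% of its exonic bases lay in exons of other genes. Cct5 lay 2.48 times above Tcp1 per kilobase (2.42 to 2.55) and 1.93 times per kilobase of coding sequence (1.88 to 1.98). The order depended on the length. With all exons Cct5 stayed highest at 279 CPM per kb, but Cct3 came to 105, and Cct7 was lowest at 71.8, below Tcp1 at 81.6. The coefficient of variation over the 7 subunits was 35.1% per kilobase of transcript and 22.8% per kilobase of coding sequence, a scale on which their lengths differ little. Cct6b, the testis relative of Cct6a, had 11 counts.

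**Figure D2:**
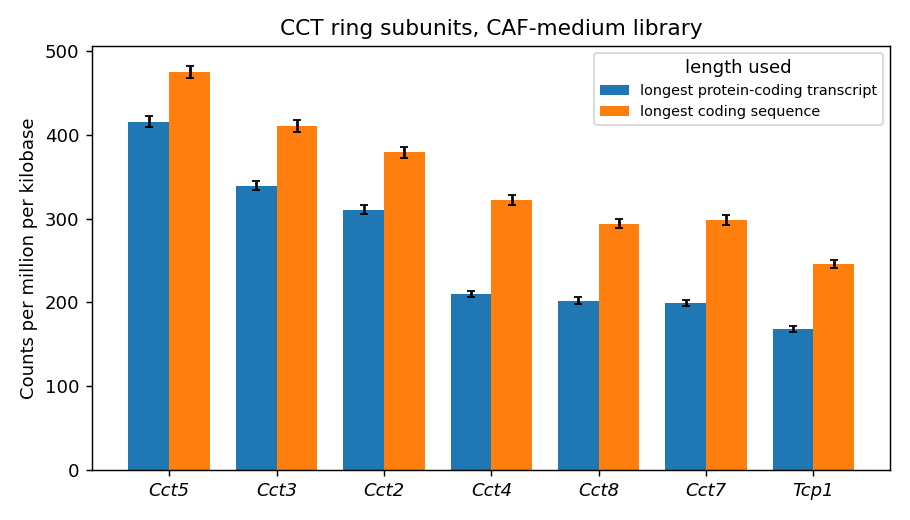
Level of the 7 CCT subunits in CPM per kilobase, with bars per kilobase of the longest protein-coding transcript and of the longest coding sequence and error bars for exact Poisson 95% intervals. Cct5 is highest and Tcp1 lowest on both scales, 2.48 and 1.93 times apart.

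Mitochondrial chaperones split by level into 3 abundant genes and 2 lower ones. Hspa9, the mitochondrial HSP70 that pulls in and folds imported proteins, was counted 36023 times, or 1694 CPM (1676 to 1711) and 555 CPM per kb. It took the 14th place in the whole table by CPM and came next after Hsp90ab1 among the 39 genes on both scales, with 1.1% of its windows shared. Hspd1, the HSP60 gene (chromosome 1, 55077835 to 55088243, minus strand), had 13732 counts, or 646 CPM (635 to 657) and 266 CPM per kb. Hspe1, the gene of its lid HSP10 (chromosome 1, 55088132 to 55091307, plus strand), received 4903 counts, which is 230.5 CPM (224 to 237) and 298 CPM per kb. The order of this pair depends on the length: the ratio of Hspd1 to Hspe1 was 2.8 in counts (2.71 to 2.89), 0.895 per kilobase of transcript (0.866 to 0.925) and 0.499 per kilobase of coding sequence (0.483 to 0.515). Shared windows made up 39.2% for Hspd1 and 31.1% for Hspe1. Hspa9 lay 2.08 times above Hspd1 per kilobase (2.04 to 2.13), a pair chosen after its values were seen.

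Trap1, the HSP90 of mitochondria, stood at 53.6 CPM (50.5 to 56.8) and 23.1 CPM per kb. Dnaja3, the J-domain partner of HSPA9, stood at 74.0 CPM (70.3 to 77.7) and 27.9 CPM per kb. Both exceeded the median gene and lay far below the other 3 genes of the group per kilobase. Serpinh1, the collagen chaperone HSP47 of the endoplasmic reticulum, stood at 92.4 CPM (88.4 to 96.6) and 40.6 CPM per kb. Among the collagens counted as fibroblast markers, Col1a1 had 29 counts and the other two were listed at 0.

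Ordered by the median of genes with at least 10 counts, the role groups ran from HSP90 at 533 CPM per kb through mitochondrial chaperones at 266 and the CCT ring at 209.8 to exchange factors at 97.3 and HSP90 co-chaperones at 75.5. Serpinh1 followed alone at 40.6 CPM per kb, then heat shock factors at 29.5, J-domain genes at 27.9, HSP70 genes at 19.5 and Hspb1, the small heat shock protein gene with at least 10 counts, at 0.607. The HSP70 median, over 5 genes, is the level of Hspa13, in a range from 1.43 CPM per kb for Hspa2 to 312 for Hspa8. HSP90 and the heat shock factors hold 2 genes each. HSP90, mitochondrial chaperones and the CCT ring held the first 3 places with each of the 3 lengths tried. The order further down depended on the length: per kilobase of coding sequence HSP90 co-chaperones came to 220.1 CPM and exchange factors to 156, and with all exons the co-chaperones came to 35.6, below Serpinh1 at 37.8. Over genes with under 10% of windows shared, the mitochondrial median fell to 27.9 CPM per kb, since Hspd1 and Hspe1 dropped out of that group.

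**Figure D3:**
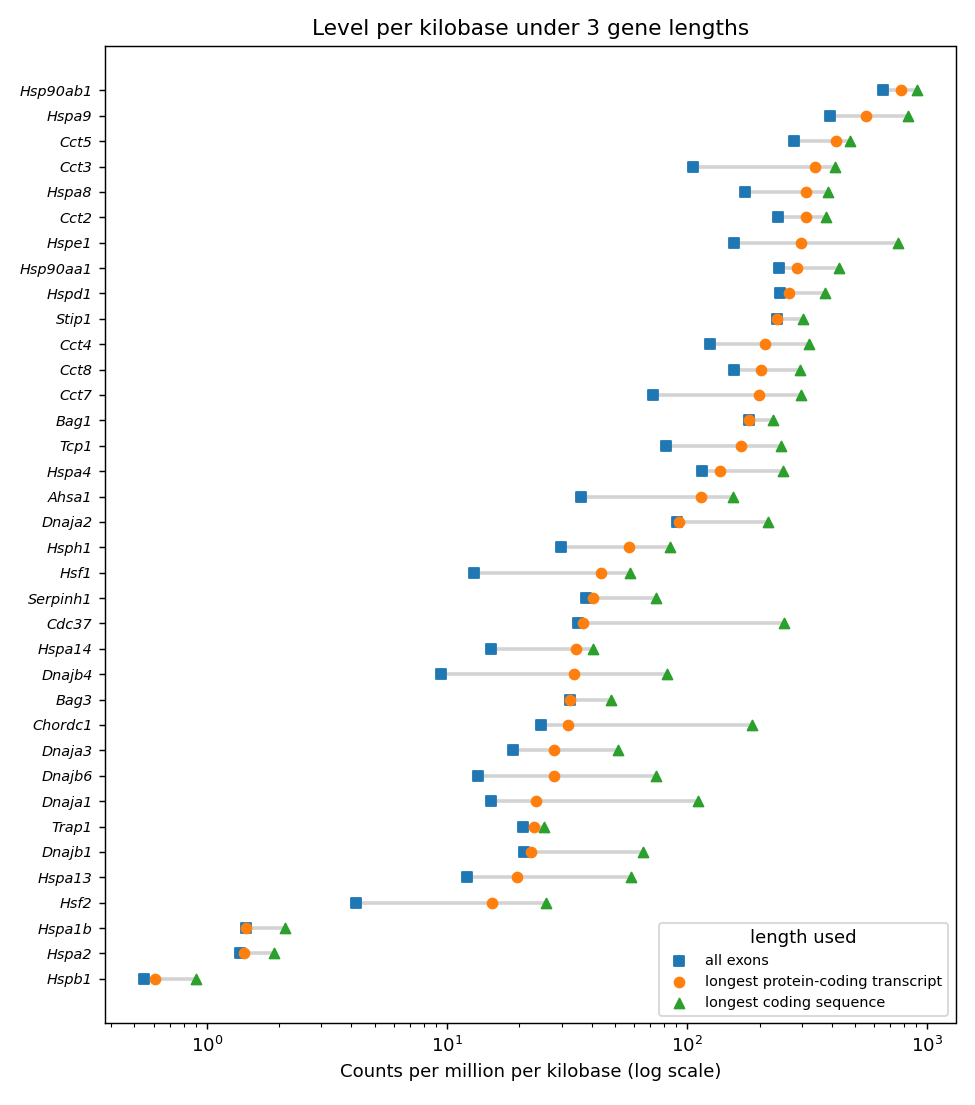
Level of the 36 genes with at least 10 counts in CPM per kilobase on a log axis, with the length of all exons, of the longest protein-coding transcript or of the longest coding sequence as divisor. Hsp90ab1 and Hspa9 lead with the transcript length at 779 and 555 CPM per kb, and Hspa1b, Hspa2 and Hspb1 stay at the bottom with each length.

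Levels were then set beside the elements in the windows. The 5 genes with 3 repeats ranged from 27.9 CPM per kb for Dnajb6 to 298 for Hspe1, with a median of 57.2. The 10 genes with 2 repeats only ran from a gene listed at 0 to 416 CPM per kb for Cct5, with a median of 28.0, and held Hspa1a, Hspa1b, Hspb1 and Hspb8. The 17 genes with a window and no exact match in it had a median of 92.1 CPM per kb and a highest level of 339.7 for Cct3. The 3 ranges overlapped. Genes without a window were Cct4, Hsf1, Hsp90aa1, Hsp90ab1, Hspa13, Hspa8 and Hspa9, which include Hsp90ab1 and Hspa9, the highest of the 39 per kilobase, so the medians above leave out the top of the range.

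**Figure D4:**
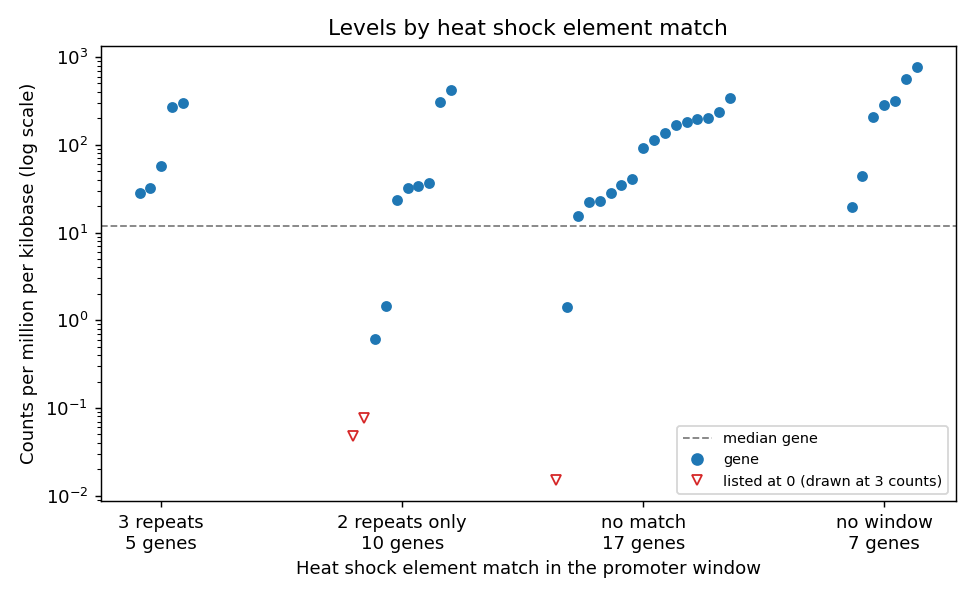
Level of each of the 39 genes in CPM per kilobase on a log axis, by the heat shock element matched in its promoter window, with open triangles at 3 counts for genes listed at 0 and a dashed line at the median gene. All 5 genes with 3 repeats lie above the line, as do 33 of all 39 genes, and the groups overlap.

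A separate list of 75 further genes of the chaperone network in 9 classes was examined in the same way. All 75 were found. A total of 61 reached 10 counts or more, and 8 were listed at 0. Of all 21983 entries, 11569 reached 10 counts and 8056 were listed at 0. In CPM 43 of the 75 exceeded the median gene, and 49 did so in CPM per kb. Over all entries the share above the median gene was 26.3% on either scale, to be set beside the class counts below. The median of the 61 was 79.6 CPM and 26.3 CPM per kb. All 6 genes of prefoldin, which delivers actin and tubulin to CCT, exceeded the median gene, between 67.8 CPM per kb and 109.8 CPM per kb for Pfdn6. Pfdn1 stood at 91.7 CPM per kb. The class of CCT partners had 5 genes, among them the testis subunit gene Cct6b. Of the 5, 2 exceeded the median gene in CPM and 3 in CPM per kb, and Txndc9 and Pdcl3 led at 44.1 and 20.3 CPM per kb.

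Of 13 other HSP90 co-chaperones 10 exceeded the median gene in CPM, with Fkbp4, an immunophilin of steroid receptor complexes, at 188 CPM per kb and Ppid at 138 CPM per kb. Of 9 other HSP70 partners 4 did so in CPM and 6 in CPM per kb, with St13, which steadies HSP70 in its bound state, at 144 CPM per kb and Bag6 at 97.9 CPM per kb. Of 14 other J-domain genes, listed apart from the mitochondrial ones, 7 did so in CPM and 9 in CPM per kb. The highest were Dnajc21 at 80.2 and Dnajc8 at 62.3 CPM per kb. None of 8 other small heat shock protein genes exceeded the median gene in CPM, 2 did so in CPM per kb, and 3 were listed at 0. Those 2 were Hspb11, which works in cilia, at 25.4 CPM per kb and Hspb6 at 14.1 CPM per kb, and the lens crystallin gene Cryab had 9 counts.

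Of 11 other mitochondrial chaperones and proteases 8 exceeded the median gene in CPM, with the matrix protease Lonp1 at 127 CPM per kb and Clpp at 71.5 CPM per kb. All 5 genes of disaggregation and aggregate handling did so in CPM and 4 in CPM per kb, led by Vcp, the segregase that pulls proteins out of complexes, at 103 CPM per kb with 57.4% of windows shared, and Ubqln4 at 87.7 CPM per kb. The class of other heat shock factors and their binding protein had 4 genes. Hsbp1, a binding partner of HSF1, stood at 113 CPM per kb and Hsf4 at 8.19 CPM per kb. Hsf5 had 3 counts and Hsf3 was listed at 0.

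**Figure D5:**
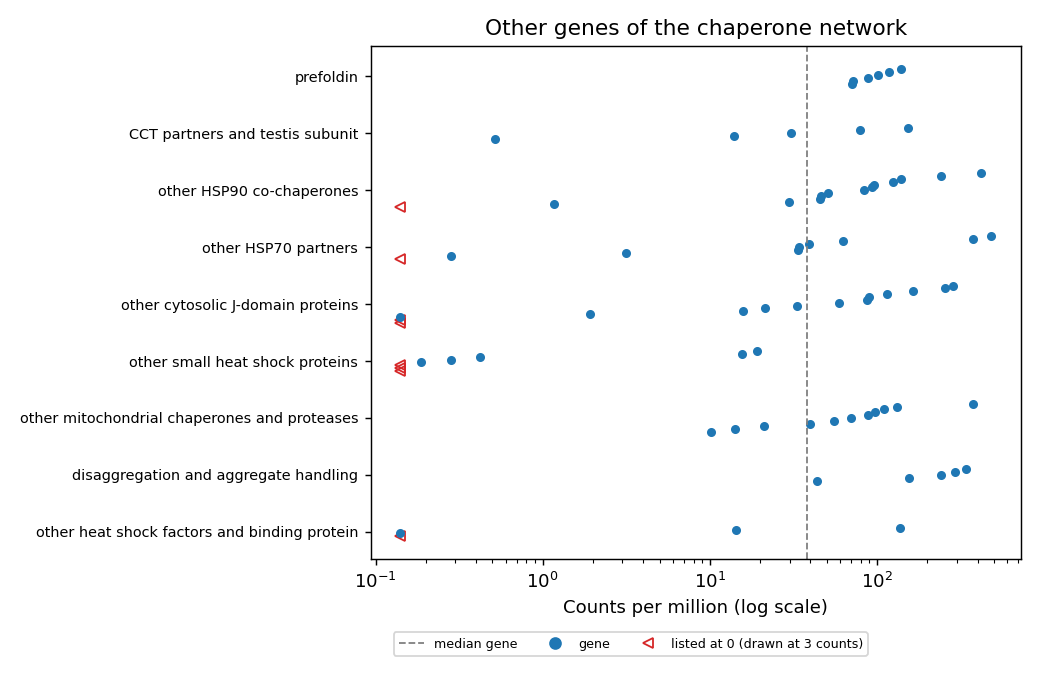
Level of 75 other chaperone network genes in CPM on a log axis, by class, with open triangles at 3 counts for genes listed at 0 and a dashed line at the median gene (37.9 CPM). All 6 prefoldin genes lie right of the line and all 8 other small heat shock protein genes left of it, though 2 of the 8 exceed the median gene per kilobase.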

How the data were processed

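Total RNA of 14837 cells (2 ug) went into each library, 1 per medium. The submitters' processing notes name HISAT2 (2.1.0), StringTie and mm10 without saying what each did. The deposited values are whole-number counts per gene symbol made by the authors, and for the counter, the strand setting and the handling of multiply matched reads the labels give nothing. Of 2 value columns 1 could not be tied to a library by its name and was not used, so no comparison of media, test or replicate error was possible. The library total was 21269197 counts.

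CPM, exact Poisson and exact binomial 95% intervals were computed. They cover counting error only. Lengths, exon overlaps and shared windows (64 bases every 16 bases, both strands, in transcripts of other genes) came from GENCODE M21 (mm10), which matched 21900 symbols. Genes with at least 10 counts set the median gene, and 4 entries with 2 repeated names were left out there. Promoter windows were from RefSeq, GRCm38.p6. The genes and lists were chosen with earlier results of these data known. All listed genes are accounted for, and the 2 highest of each further class by CPM per kb are named. Intervals and motif search were tested on simulated data. Alternatives changed the minimum, length, total and shared genes. Software was Python 3.11.15 with pandas 2.3.3, numpy 2.4.6, matplotlib 3.10.9 and scipy 1.17.1.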

Additional observations from a re-analysis of the deposited data

How the results depend on the processing

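The number of genes above the median gene was 33 and lay between 32 and 33 under the other minimums, protein-coding genes only and both length scales. It was 25 of the 28 genes with under 10% of windows shared. The median of the genes was 185 CPM with genes at 0 included and 243 CPM with at least 100 counts, against 224 CPM, and stayed within its counting interval without the mitochondrial genome and over genes with few shared windows. Ratios and group medians are reported per kilobase of the longest protein-coding transcript, and other lengths moved most of them beyond their counting interval.

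The ratio of Hspd1 to Hspe1 turned round to 2.8 in counts and 1.56 with all exons, and that of Dnajb1 to Dnajb6 to 1.55 with all exons. In counts, the ratios were 2.08 for Hsp90ab1 to Hsp90aa1, 1.18 for Hspa8 to Hspa4, 2.29 for Hsf1 to Hsf2, 2.91 for Bag1 to Bag3, 0.49 for Dnaja1 to Dnaja2 and 1.88 for Cct5 to Tcp1. With all exons they were 1.51 for Hspa8 to Hspa4, 3.1 for Hsf1 to Hsf2, 0.169 for Dnaja1 to Dnaja2 and 3.42 for Cct5 to Tcp1. With the coding sequence they were 2.1 for Hsp90ab1 to Hsp90aa1, 0.499 for Hspd1 to Hspe1, 1.53 for Hspa8 to Hspa4, 2.23 for Hsf1 to Hsf2, 4.73 for Bag1 to Bag3, 0.508 for Dnaja1 to Dnaja2, 0.882 for Dnajb1 to Dnajb6 and 1.93 for Cct5 to Tcp1. Of the pairs added after the values were seen, Hspa8 to Hspa1b came to 119 with all exons, Hspa4 to Hsph1 to 2.91 in counts, 3.83 with all exons and 2.97 with the coding sequence, and Hspa9 to Hspd1 to 2.62, 1.61 and 2.21 in the same order.

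With all exons, group medians in CPM per kb were 35.6 for HSP90 co-chaperones, 12.1 for HSP70 genes, 73.7 for exchange factors, 15.3 for J-domain genes, 124 for the CCT ring and 156 for mitochondrial chaperones. With the coding sequence they were 220.1, 40.6, 156, 82.0, 322 and 376 in the same order. With genes at 0 included, HSP70 genes came to 10.5 and exchange factors to 57.2. Over genes with under 10% of windows shared, HSP90 co-chaperones came to 36.7, J-domain genes to 33.6, the CCT ring to 260.4 and mitochondrial chaperones to 27.9. No paired analysis was possible because 1 library was used. Other scalings and minimums for a difference between the media were not run, because the media were not compared, and Hspa1b to Hspa1a has no ratio because Hspa1a was listed at 0. Depth limits mainly the 3 genes listed at 0 and Hspb1, Hspa2 and Hspa1b, whose intervals are the widest relative to their level.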
